A study of Homo sapiens with 9 samples.

Results

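Small-RNA host genes are, with few exceptions, noncoding genes whose transcripts carry snoRNAs or microRNAs inside them. They were taken here by symbol: SNHG plus a number and GAS5 give the snoRNA hosts, and symbols that start with MIR and end with HG give the microRNA hosts. Of 58096 gene identifiers in the count tables, 88 met this rule, 26 of them snoRNA hosts and 62 microRNA hosts. SNHG28 stands under 2 identifiers, of which 1 is annotated as protein coding, and neither passed to the tests. A filter on low counts left 41 host genes for testing (21 snoRNA hosts and 20 microRNA hosts). These passed on their counts in at least 3 libraries, of whichever group, so they are not a sample of all 88. The study sequenced polyA+ RNA of ALL-SIL, an established human T-cell acute lymphoblastic leukaemia line, after electroporation with an siRNA. There were 3 groups of 3 libraries: TLX1 siRNA1, TLX1 siRNA2 and NTC siRNA, each numbered replicate 1 to 3 in the titles. All groups share the cell line and the electroporation, and ALL-SIL is 1 line, so nothing here speaks for other leukaemias. Neither the dose, nor the time of harvest, nor what a replicate number stands for is stated by the labels.

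Most snoRNAs guide the chemical modification of ribosomal RNA, and in human cells nearly all are cut from introns of a longer host transcript. Many snoRNA hosts start with the pyrimidine-rich 5′ end known from ribosomal protein mRNAs, and several of their spliced transcripts, GAS5 among them, are known targets of nonsense-mediated decay, which destroys RNAs whose reading frame stops early. MicroRNA hosts are cut in the nucleus by Drosha and DGCR8 to release hairpins, which Dicer then trims to mature microRNAs that find their targets through the seed, bases 2 to 8. A host's level in polyA+ RNA is that of the spliced or unspliced long transcript, not that of the small RNA.

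The mature sequences below belong to the microRNA hosts whose levels are described in detail, with the seed in capitals, so that hosts carrying the same seed can be seen. They come from RefSeq (GRCh38.p14), which held 89 of the 94 microRNA genes that GENCODE 29 places inside the hosts. MIR29B2CHG carries miR-29b and miR-29c with a shared seed, at chr1:207802450-207802472 and chr1:207801865-207801886 on the minus strand.
miR-29b-3p: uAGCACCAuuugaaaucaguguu
miR-29c-3p: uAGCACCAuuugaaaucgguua
The miR-181a and miR-181b sequences are carried by MIR181A1HG on chromosome 1 and again, letter for letter, by MIR181A2HG on chromosome 9.
miR-181a-5p: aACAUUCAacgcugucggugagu
miR-181b-5p: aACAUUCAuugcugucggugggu
MIR222HG carries miR-221 and miR-222, which also share their seed.
miR-221-3p: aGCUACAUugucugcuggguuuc
miR-222-3p: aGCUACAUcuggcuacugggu
The 6 microRNAs of the cluster in MIR17HG fall into 4 seeds, with miR-17 and miR-20a alike and miR-19a and miR-19b alike.
miR-17-5p: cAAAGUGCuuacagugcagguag
miR-20a-5p: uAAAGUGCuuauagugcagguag
miR-18a-5p: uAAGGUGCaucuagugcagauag
miR-19a-3p: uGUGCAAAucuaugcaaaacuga
miR-19b-3p: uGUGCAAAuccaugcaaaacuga
miR-92a-3p: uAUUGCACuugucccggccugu
The remaining sequences shown have seeds of their own, and come from MIR210HG, MIR4697HG, MIR663AHG, MIR600HG, MIR646HG, MIR3142HG (the host of MIR146A) and MIR155HG in that order.
miR-210-3p: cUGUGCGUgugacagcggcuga
miR-4697-3p: uGUCAGUGacuccugccccuuggu
miR-663a: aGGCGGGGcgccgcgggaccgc
miR-600: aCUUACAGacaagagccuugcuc
miR-646: aAGCAGCUgccucugaggc
miR-146a-5p: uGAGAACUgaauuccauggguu
miR-155-5p: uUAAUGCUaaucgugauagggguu

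The start windows of snoRNA hosts are shown because 13 of these genes were lower in the replicate 1 libraries, as described further on. Each window runs from 10 bases before to 20 bases after the RefSeq start (GRCh38.p14), and capitals mark a C followed without a break by at least 4 bases that are each C or T, beginning within 5 bases of the start on the gene's own strand. The first 7 windows are those of hosts lower in the replicate 1 libraries, and the last 2 those of hosts that were not called there.
SNHG3: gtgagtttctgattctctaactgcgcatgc
SNHG4: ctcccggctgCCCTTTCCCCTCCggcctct
SNHG5: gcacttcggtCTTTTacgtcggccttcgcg
SNHG7: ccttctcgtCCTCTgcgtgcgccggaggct
SNHG19: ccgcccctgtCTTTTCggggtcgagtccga
SNHG20: ttccggccggaagttgctgacggagctact
GAS5: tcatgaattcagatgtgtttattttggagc
SNHG8: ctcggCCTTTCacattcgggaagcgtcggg
SNHG12: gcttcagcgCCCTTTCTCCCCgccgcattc
The SNHG4 window lies at chr5:139274091-139274120 on the plus strand and that of SNHG5 at chr6:85678714-85678743 on the minus strand. Of the 21 tested snoRNA hosts, 17 were matched to a RefSeq window, and 8 of the 17 held such a run (47.1%). Of 18 matched microRNA hosts 7 held it (38.9%). The share was 21.1% of all 35116 RefSeq windows, which are not limited to tested genes. Of the 8 snoRNA hosts with the run, 5 were lower in the replicate 1 libraries, and of the 9 without it, 6 were. The run is a description of letters at 1 annotated start per gene. The GAS5 and SNHG3 windows shown, in which the run was not found, lie wholly upstream of the spans that GENCODE 29 gives these genes. The windows matched to SNHG14, also without the run, and to MIR17HG, which held it, lie upstream of their spans too.

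Each library held between 58305492 and 99524663 counts in genes, and the host genes together took 0.138% to 0.173% of them. TLX1, the gene the siRNAs are directed against, went against its label: the NTC libraries held 184, 167 and 183 CPM (counts scaled by library size and TMM factor), those labelled siRNA1 406, 457 and 387 CPM, and those labelled siRNA2 198, 231 and 179 CPM. TLX1 was thus higher in every library labelled siRNA1 than in any NTC library (log2 fold change 1.23, SE 0.10, adjusted p = 0.000449, edgeR's quasi-likelihood test with Benjamini-Hochberg adjustment). It was higher in siRNA1 than in siRNA2 too (1.04, SE 0.10, adjusted p = 0.00115, same test). The labels could therefore not be checked by the targeted gene, and groups are named by their labels only. The part of the TLX1 level in the differences below was not tested. Of 12 T lymphoblast markers, 11 were over 1 CPM, the exception being PTCRA, whereas no marker of myeloid, erythroid, NK or epithelial and fibroblast cells was over 1 CPM and HBA1, NCR1, KLRF1, NCAM1 and KRT18 had no count. Because the labels do not call the replicates separate cultures, the p-values measure only how these libraries spread, and that spread may be technical. In bulk RNA, fewer cells with a transcript and less transcript per cell cannot be told apart.

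Levels were compared between genes per kb of annotated exon sequence. The snoRNA hosts ran from 0.553 CPM per kb (SNHG26) to 115 CPM per kb (SNHG6), and the microRNA hosts from 0.0269 CPM per kb (MIR133A1HG) to 7.78 CPM per kb (MIR4453HG). SNHG6, the host of SNORD87, led at 115 ± 24.7 CPM per kb (SD, n = 9), which placed it above 98.6% of the genes tested. SNHG8, the host of SNORA24, stood at 72.8 ± 3.58 CPM per kb, SNHG1, which holds a row of box C/D snoRNAs, at 69.00 ± 6.28, SNHG19, the host of SNORD60, at 57.2 ± 11.2, and GAS5 at 54.5 ± 7.47. SNHG5 followed with 46.7 ± 11.01 CPM per kb, SNHG3, the host of the SNORA73 snoRNAs, with 25.7 ± 4.91 and SNHG15, the host of SNORA9, with 25.3 ± 2.52. In this order all neighbours from SNHG8 down to SNHG5 overlapped in their ranges over the 9 libraries, and so did SNHG3 and SNHG15. SNHG19, at 44.8 to 73.6 CPM per kb, overlapped SNHG1 (61.5 to 78.7) as well as GAS5 and SNHG5.

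Among microRNA hosts, MIR4453HG stood at 7.78 ± 0.750 CPM per kb and MIR155HG, the primary transcript also known as BIC, at 7.10 ± 1.23 CPM per kb (SD, n = 9). MIR210HG stood at 4.82 ± 1.84, MIR4697HG at 4.18 ± 1.29, MIR503HG at 4.16 ± 0.426 and MIR17HG at 3.56 ± 0.461 CPM per kb, and these 4 overlapped across libraries. MIR4453HG (6.80 to 8.60 CPM per kb) and MIR155HG (5.91 to 9.46) overlapped as well, and MIR210HG reached 7.80 CPM per kb in 1 library. The host at the top of the microRNA group was below 13 of the 21 snoRNA hosts in mean level per length. The order depends on the length used: per kb of the longest transcript, MIR4435-2HG (9.38, from 2.55 CPM per kb) and MIR503HG (9.19) stood above MIR4453HG (7.78). On that scale SNHG6 still led at 220.5 CPM per kb, followed by SNHG5 at 127 and GAS5 at 117, both above SNHG8 and SNHG1. The 47 untested hosts had few counts or none: 24 had no count in any library (3 snoRNA and 21 microRNA hosts), and the other 23 had at most 62 counts summed over the 9 libraries. A count of 0 allows up to 3 counts per library, and this limit covers counting error only. Several levels are uncertain because exon bases are shared with another annotated gene on either strand: 72.9% of those of SNHG21, 59.6% of MIR762HG, 48.6% of SNHG25, 36.4% of SNHG6, 33.4% of SNHG16 and 31.4% of SNHG7. In SNHG25 the shared bases are those of snoRNA genes in its own exon sequence, and in SNHG21 most are shared with AC105339.2 on the same strand. MIR4435-2HG has a near-identical copy, CYTOR, with which it can share reads.

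**Figure D1:**
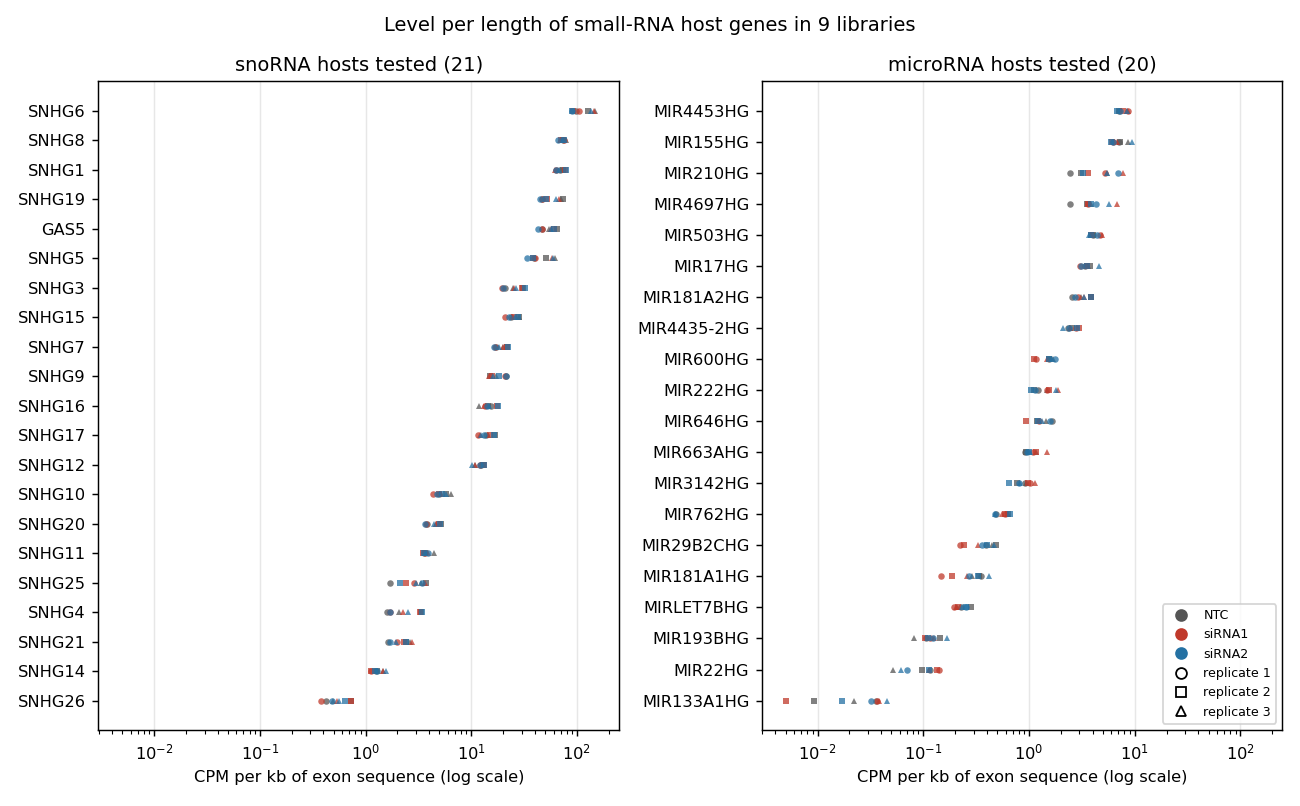
Level per length, in CPM per kb of exon sequence on a log axis, of the 21 tested snoRNA hosts (left) and 20 tested microRNA hosts (right), ordered by mean; each point is 1 of 9 libraries, coloured by siRNA label with the shape giving the replicate number. SNHG6 leads with a mean of 115, and the microRNA hosts all lie below a mean of 8 CPM per kb.

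The comparison of the libraries labelled siRNA1 with NTC asks which hosts differ between these labels. TLX1 itself was higher in the libraries labelled siRNA1, as given above. With the 3 libraries of each group taken as they stand, 0 of 41 hosts were called by edgeR's quasi-likelihood test at a Benjamini-Hochberg adjusted p under 0.05, beside 1.28% of all 18554 genes tested, and 3 hosts had an unadjusted p under 0.05, as did 10.3% of all genes. DESeq2 called 1 host in this comparison and limma-voom 0. The same-numbered libraries of the 3 groups deviated together, however, and with the replicate number in the model 10 of 41 hosts were called, beside 11.4% of all genes. Of the 10, 8 were among the 20 microRNA hosts (4 higher, 4 lower) and 2 among the 21 snoRNA hosts (both lower). The fold changes that follow are from the model with the replicate number, on the log2 scale, with the adjusted p of the model without it where stated.

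MIR29B2CHG, the long transcript at chr1:207801518-207879096 that carries miR-29b and miR-29c in its exon sequence, had the lowest adjusted p. It stood at 6.41, 7.95 and 7.31 CPM in the NTC libraries, 3.68, 4.002 and 5.46 CPM in those labelled siRNA1 and 5.85, 6.64 and 7.66 CPM in those labelled siRNA2. Each library labelled siRNA1 was below each of the other 6 libraries. The difference from NTC was 1.66-fold lower (-0.73, SE 0.10, adjusted p = 3.26e-05, edgeR), and without the replicate number the adjusted p was 0.0735. The call with the replicate number held when any 1 of the 9 libraries was left out, with adjusted p at most 0.000779.

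MIR181A1HG, whose introns hold MIR181A1 and MIR181B1, was also lower and rests on few reads, 45 to 110 counts per library. Its values were 1.15, 1.10 and 0.934 CPM in NTC, 0.478, 0.611 and 0.841 CPM in siRNA1 and 0.888, 1.07 and 1.35 CPM in siRNA2 libraries. No library labelled siRNA1 reached an NTC library, and the fold change was -0.73 (SE 0.19, adjusted p = 0.0151, edgeR; 0.264 without the replicate number). The call was lost without NTC replicate 1 or 2 or siRNA1 replicate 1 or 2, with adjusted p between 0.0516 and 0.137. MIR181A2HG, which carries the same mature sequences, was not called: its fold change was 0.09 (SE 0.12, adjusted p = 0.742, edgeR), from 1.69, 2.57 and 2.03 CPM in NTC and 1.94, 2.54 and 2.17 CPM in siRNA1 libraries. The difference between these hosts was not tested.

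Among the called microRNA hosts, MIR600HG too had all libraries labelled siRNA1 below all NTC libraries. It stood at 9.19, 9.16 and 10.1 CPM in NTC, 6.95, 6.73 and 8.85 CPM in siRNA1 and 10.7, 9.27 and 9.86 CPM in siRNA2 (-0.34, SE 0.092, adjusted p = 0.0158, edgeR). MIR646HG was lower in each of the 3 same-numbered pairs, although the groups overlap, at 8.56, 6.15 and 7.50 CPM in NTC and 6.41, 4.83 and 6.42 CPM in siRNA1 (-0.33, SE 0.092, adjusted p = 0.0213, edgeR). MIR155HG showed 11.5, 11.7 and 13.9 CPM in NTC and 9.999, 9.67 and 10.9 CPM in siRNA1. Its groups did not overlap either, but it did not pass (-0.27, adjusted p = 0.059, edgeR). The MIR600HG call was lost without NTC replicate 2 or siRNA1 replicate 1 or 2 (adjusted p 0.061 to 0.162), and that of MIR646HG without NTC replicate 1 or 3 or siRNA1 replicate 1 or 2 (adjusted p 0.0663 to 0.165).

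The 4 hosts that were higher in the libraries labelled siRNA1 were MIR4697HG, MIR210HG, MIR222HG and MIR663AHG. MIR4697HG stood at 12.5, 18.1 and 19.9 CPM in NTC, 18.5, 18.6 and 34.9 CPM in siRNA1 and 22.3, 19.9 and 29.4 CPM in siRNA2, with siRNA1 replicate 3 far above its fellows. It was higher in each same-numbered pair (0.47, SE 0.11, adjusted p = 0.0059, edgeR), and without siRNA1 replicate 3 the call was lost (adjusted p = 0.122). MIR210HG, the host of a microRNA known to be induced by low oxygen, varied widely within groups, at 5.69, 7.23 and 12.8 CPM in NTC, 12.1, 8.30 and 18.1 CPM in siRNA1 and 16.2, 7.58 and 12.6 CPM in siRNA2. Its fold change against NTC was 0.55 (SE 0.17, adjusted p = 0.0384, edgeR), and the call was lost without NTC replicate 1, siRNA1 replicate 1 or 3, or siRNA2 replicate 3 (adjusted p 0.0512 to 0.319).

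MIR222HG, the host of miR-221 and miR-222, stood at 3.42, 3.10 and 4.12 CPM in NTC and 4.10, 4.35 and 5.23 CPM in siRNA1, and rose in each same-numbered pair by a fold change of 0.37 (SE 0.11, adjusted p = 0.0352, edgeR). MIR663AHG stood at 4.84, 4.89 and 6.12 CPM in NTC and 5.73, 6.16 and 7.72 CPM in siRNA1 (0.31, SE 0.097, adjusted p = 0.0429, edgeR). Both groups overlap with NTC. The MIR222HG call was lost without NTC replicate 2 or 3 or siRNA1 replicate 1 or 2 (adjusted p 0.0741 to 0.257), and that of MIR663AHG without any 1 of the 3 NTC or 3 siRNA1 libraries (adjusted p 0.0847 to 0.242).

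**Figure D2:**
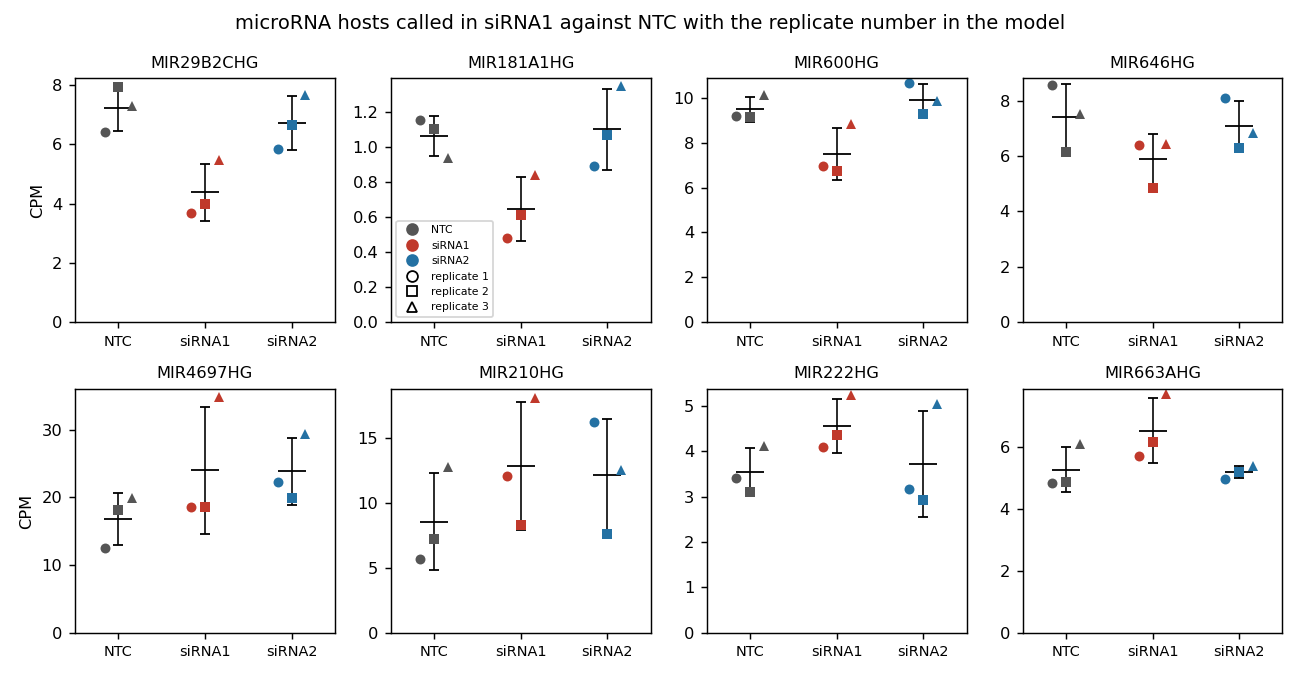
CPM of the 8 microRNA hosts called in siRNA1 against NTC with the replicate number in the model, by siRNA label; points are libraries (shape: replicate number), horizontal marks are means and bars are SD, n = 3. For MIR29B2CHG the libraries labelled siRNA1, 3.68 to 5.46 CPM, lie below all others, and siRNA1 replicate 3 of MIR4697HG reaches 34.9 CPM.

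Of the snoRNA hosts, SNHG15 and SNHG17, the host of the SNORA71 snoRNAs, were lower in the libraries labelled siRNA1. SNHG15 stood at 87.6, 104 and 102 CPM in NTC and 76.4, 91.7 and 88.00 CPM in siRNA1, a fold change of -0.20 (SE 0.06, adjusted p = 0.0327, edgeR), and SNHG17 at 57.95, 70.9 and 59.96 and 48.3, 63.5 and 51.02 CPM, a fold change of -0.22 (SE 0.065, adjusted p = 0.0297, edgeR). The groups overlap for both, each was lower in all 3 same-numbered pairs, and each call was lost without NTC replicate 1 or 3 or any 1 siRNA1 library (adjusted p 0.065 to 0.234). Over the 21 snoRNA hosts the median fold change was -0.04, beside 0.00 over all genes tested. Of the 21, 17 were below 0, beside 9082 of the 18554 genes tested. GAS5, at 201 ± 33.1 CPM in NTC and 199 ± 26.3 CPM in siRNA1 (SD, n = 3), differed by -0.01 with an SE of 0.062, and SNHG1 by -0.04 with an SE of 0.064. Of 10 transcription factors known at host promoters, NOTCH1 (-0.64, adjusted p = 4.48e-06), MYC (-0.37, adjusted p = 0.00162) and RUNX1 (-0.25, adjusted p = 0.00828) were lower and NFKB1 (0.35, adjusted p = 0.000572) was higher by edgeR with the replicate number in the model. Over all genes 5.93% were lower and 5.48% higher, and the part of these factors in the host differences was not tested.

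In the libraries labelled siRNA2, no host was called against NTC, either as the groups stand (0 of 41, and 0% of all genes) or with the replicate number in the model (0 of 41, beside 0.151% of all genes). At an unadjusted p under 0.05, edgeR gave 0 hosts without (2.11% of all genes) and 6 with the replicate number (8.37% of all genes), and DESeq2 and limma-voom called 0 without it. Among hosts over 1 CPM the highest fold changes were those of MIR210HG (0.50, SE 0.17, adjusted p = 0.351) and MIR4697HG (0.50, SE 0.11, adjusted p = 0.0639, edgeR with the replicate number), and for MIR4697HG every library labelled siRNA2 was above every NTC library. The lowest was that of SNHG19 (-0.26, SE 0.087, adjusted p = 0.328, edgeR with the replicate number). For MIR29B2CHG the fold change was -0.11 (SE 0.10), for MIR181A1HG 0.04 (SE 0.19) and for MIR600HG 0.07 (SE 0.092). The comparisons of siRNA1 and of siRNA2 with NTC share the NTC libraries and are given side by side for that reason only.

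**Figure D3:**
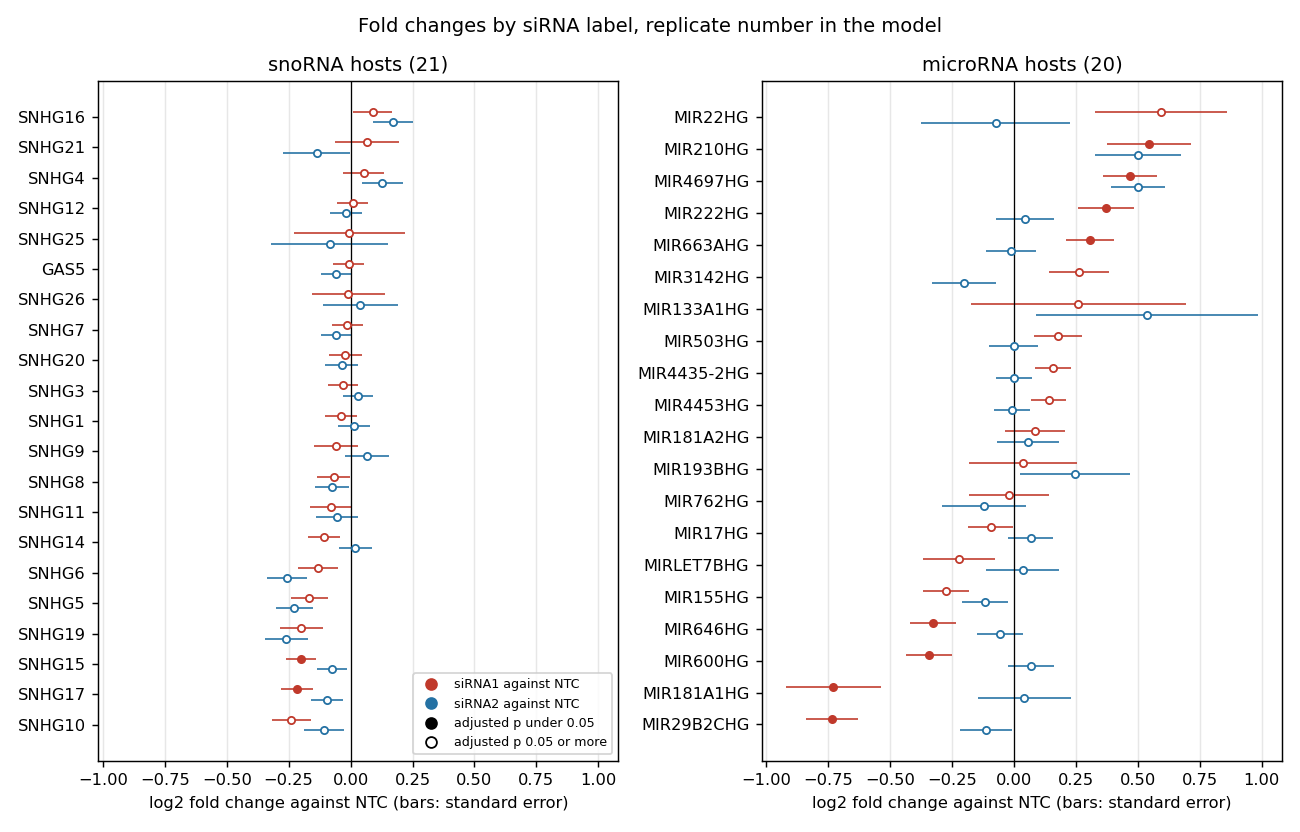
Log2 fold change against NTC of the 21 snoRNA hosts (left) and 20 microRNA hosts (right), with the replicate number in the model, for siRNA1 (red) and siRNA2 (blue), which share the NTC libraries; bars are standard errors and filled points have an adjusted p under 0.05. Filled points appear for siRNA1 alone (10 hosts), from -0.73 for MIR29B2CHG to 0.55 for MIR210HG.

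The libraries labelled siRNA1 and siRNA2 were compared directly, since both carry the name of TLX1 in their label. Taken as they stand, 0 of 41 hosts were called (1.08% of all genes), with 5 at an unadjusted p under 0.05 (10% of all genes), 2 calls by DESeq2 and 0 by limma-voom. With the replicate number in the model 5 of 41 were called (10.6% of all genes), all of them microRNA hosts. MIR29B2CHG (-0.62, SE 0.11, adjusted p = 0.000319), MIR600HG (-0.41, SE 0.092, adjusted p = 0.00447) and MIR181A1HG (-0.77, SE 0.20, adjusted p = 0.0118) were lower in siRNA1 by edgeR, with no overlap between the groups. MIR3142HG, the host of the NF-kB target MIR146A, was higher in siRNA1, at 2.41, 2.32 and 2.72 CPM against 1.92, 1.55 and 1.94 CPM (0.46, SE 0.12, adjusted p = 0.0174, edgeR). MIR663AHG was higher too (0.32, SE 0.098, adjusted p = 0.0391, edgeR), with values of 4.99, 5.21 and 5.38 CPM in siRNA2. Leaving out 1 library ended 4 of these 5 calls: MIR600HG without siRNA1 or siRNA2 replicate 1, MIR181A1HG without siRNA1 replicate 1 or siRNA2 replicate 3, MIR3142HG without replicate 2 or 3 of either group, and MIR663AHG without any 1 of the 6 libraries (adjusted p 0.0542 to 0.218). MIR29B2CHG kept its call without each library, at adjusted p up to 0.00867.

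With the 6 libraries of both siRNAs set against NTC, 0 of 41 hosts were called as the groups stand (0.0162% of all genes; 2 hosts and 5.23% of all genes at an unadjusted p under 0.05, 0 calls by DESeq2 or limma-voom), and 2 of 41 with the replicate number (3.92% of all genes). MIR4697HG was higher (0.48, SE 0.097, adjusted p = 0.004, edgeR) and kept its call without each library (adjusted p at most 0.0444). MIR29B2CHG was lower (-0.42, SE 0.089, adjusted p = 0.00597, edgeR), a call lost without NTC replicate 2 (adjusted p = 0.0925).

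The titles also number the libraries 1 to 3, and most tested hosts differed by that number. In a joint test of the 3 numbers with the siRNA label in the model, 30 of 41 hosts were called by edgeR, beside 35.8% of all genes: 18 of 21 snoRNA hosts and 12 of 20 microRNA hosts. Calls were more frequent at higher levels, so the same was read among genes with a mean of at least 10 CPM, where 15 of 17 snoRNA hosts and 6 of 6 microRNA hosts were called, beside 44.5% of all such genes. The snoRNA hosts together took 0.122% to 0.127% of all counts in the 3 replicate 1 libraries and 0.145% to 0.158% in the other 6, with no overlap.

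Set against replicates 2 and 3, the replicate 1 libraries differed in 19 of 41 hosts (21.3% of all genes). Of these, 17 were lower, beside 10.4% of all genes lower, and 2 were higher, beside 10.9% of all genes higher. Among the 21 snoRNA hosts 13 were lower and 1 higher, and the median log2 fold change was -0.25, beside -0.01 over all genes tested. Of the 21, 17 had a mean of at least 10 CPM, and the share called among all such genes was not taken for this comparison. Among the 20 microRNA hosts 4 were lower and 1 higher, with a median of -0.06. The number of calls was 12 without NTC replicate 1 and 11 without siRNA1 replicate 1.

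SNHG4, the host of SNORA74A at chr5:139274102-139284899, had the lowest log2 fold change. Its values were 7.19, 7.67 and 7.54 CPM in the replicate 1 libraries of NTC, siRNA1 and siRNA2, 14.9, 14.6 and 15.4 CPM in replicate 2 and 9.34, 10.1 and 11.3 CPM in replicate 3. No replicate 1 library reached any other library, and the replicate 2 libraries lay above all the rest, a difference of replicate 1 from the others of -0.73 (SE 0.074, adjusted p = 2.91e-07) by edgeR. SNHG3 showed the same order at higher level, with 85.3, 79.9 and 82.1 CPM in replicate 1, 127, 125 and 133 CPM in replicate 2 and 101, 104 and 107 CPM in replicate 3. Its 3 sets did not overlap, and the difference was -0.49 (SE 0.054, adjusted p = 1.05e-06) by edgeR.

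GAS5 held 169, 170.4 and 156 CPM in replicate 1, 235, 222 and 219 CPM in replicate 2 and 198, 206 and 205 CPM in replicate 3, lowest in replicate 1 throughout (-0.37, SE 0.054, adjusted p = 3.29e-05, edgeR). SNHG20, with SCARNA16, and SNHG7, with the SNORA17 snoRNAs, also had their highest mean in replicate 2. SNHG20 differed by -0.36 (SE 0.058, adjusted p = 0.000112) and SNHG7 by -0.31 (SE 0.054, adjusted p = 0.000294) by edgeR, and for both every replicate 1 library was below the other 6. SNHG26 (-0.52, SE 0.13, adjusted p = 0.00724), SNHG15 (-0.23, SE 0.053, adjusted p = 0.00303) and SNHG17 (-0.17, SE 0.057, adjusted p = 0.034) were lower in replicate 1 as well by edgeR. For SNHG17 replicates 1 and 3 were alike, with means of 54.0 and 54.3 CPM, and replicate 2 stood higher at 67.9 CPM. The SNHG26 call was lost without siRNA1 replicate 1, and that of SNHG17 without any 1 of 7 libraries, all but NTC replicate 2 and siRNA2 replicate 3.

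SNHG5, SNHG6 and SNHG19 had another order, with replicate 3 highest. SNHG5, the host of SNORD50B, stood at 109.7, 112 and 95.4 CPM in replicate 1, 143, 108 and 108 CPM in replicate 2 and 176, 162 and 168 CPM in replicate 3 of NTC, siRNA1 and siRNA2. SNHG6 stood at 121, 131 and 111, 158, 115 and 113 and 186, 181 and 169.5 CPM, and SNHG19 at 15.99, 15.9 and 15.3, 25.2, 17.8 and 17.4 and 23.95, 22.9 and 21.6 CPM, in the same order. In all 3 genes the NTC library of replicate 2 was well above the siRNA1 and siRNA2 libraries of replicate 2, which for SNHG5 and SNHG6 lay within the range of the replicate 1 values. With 1 library for each label and number, this difference within replicate 2 could not be tested. Replicate 1 against the others gave -0.42 (SE 0.066, adjusted p = 7.16e-05) for SNHG5, -0.32 (SE 0.071, adjusted p = 0.0023) for SNHG6 and -0.44 (SE 0.077, adjusted p = 0.000274) for SNHG19 by edgeR. The SNHG6 call was lost without NTC replicate 1 (adjusted p = 0.0632, edgeR).

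SNHG10 (-0.25, SE 0.07, adjusted p = 0.0132) and SNHG21 (-0.45, SE 0.12, adjusted p = 0.00881) completed the 13 lower snoRNA hosts by edgeR, SNHG21 with the overlap noted above; without NTC replicate 1 both calls were lost, and that of SNHG10 also without either other replicate 1 library. SNHG9, the host of SNORA78, was the exception, at 11.7, 11.5 and 11.8 CPM in replicate 1, 8.20, 8.61 and 10.1 CPM in replicate 2 and 9.53, 8.17 and 8.78 CPM in replicate 3. Every replicate 1 library was above the other 6 (0.40, SE 0.076, adjusted p = 0.000607, edgeR), and the call held without each library. Of the 18 snoRNA hosts called in the joint test, 11 had their highest mean in replicate 2, 6 in replicate 3 and 1 in replicate 1. SNHG1, SNHG12, SNHG14 and SNHG16 were called in the joint test without a call for replicate 1, and SNHG8, SNHG11 and SNHG25 in neither. The joint call of SNHG1 was lost without siRNA1 or siRNA2 replicate 2 and that of SNHG16 without siRNA1 replicate 2. SNHG8 shows how level a host could be, at 67.8, 69.5 and 61.3 CPM in replicate 1, 68.5, 65.9 and 69.1 CPM in replicate 2 and 72.2, 63.3 and 67.5 CPM in replicate 3.

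**Figure D4:**
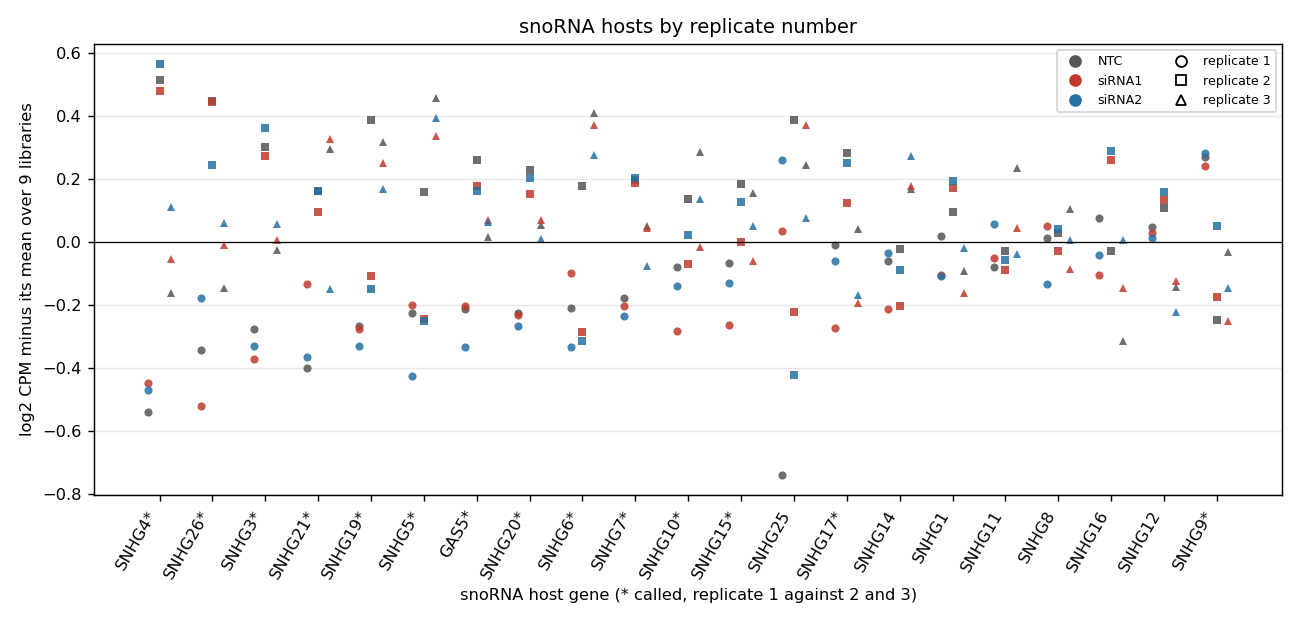
Log2 CPM of each tested snoRNA host minus its mean over 9 libraries, ordered by the difference of replicate 1 from replicates 2 and 3; within a gene, replicates 1, 2 and 3 stand left to right, colours give the siRNA label and an asterisk marks an adjusted p under 0.05 for replicate 1 against the others. SNHG4 at the left differs by -0.73 and SNHG9 at the right by 0.40.

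Of the 12 microRNA hosts called in the joint test, 9 had their highest mean in replicate 3, 2 in replicate 2 and 1 in replicate 1. MIR17HG, the host of the miR-17 to miR-92a cluster and a known target of MYC, stood at 11.7, 10.5 and 10.9 CPM in replicate 1, 13.04, 12.4 and 12.4 CPM in replicate 2 and 12.6, 12.1 and 16.1 CPM in replicate 3, with replicate 1 below the rest (-0.24, SE 0.079, adjusted p = 0.0332, edgeR). MIR4697HG (-0.39, SE 0.096, adjusted p = 0.005), MIR181A2HG (-0.36, SE 0.11, adjusted p = 0.0211) and MIR29B2CHG (-0.30, SE 0.092, adjusted p = 0.0236) were also lower in replicate 1, and MIR646HG was higher (0.28, SE 0.079, adjusted p = 0.0152), by edgeR. Each of these 5 calls was lost without siRNA1 replicate 1 (adjusted p 0.0522 to 0.152), and all but that of MIR17HG also without NTC replicate 1. Those of MIR17HG, MIR181A2HG, MIR29B2CHG and MIR646HG were lost without siRNA2 replicate 1 too, those of MIR17HG and MIR29B2CHG without NTC replicate 2, that of MIR17HG without siRNA1 replicate 2 and that of MIR29B2CHG without siRNA1 replicate 3. MIR133A1HG, MIR155HG, MIR210HG, MIR222HG, MIR4435-2HG, MIR4453HG and MIR663AHG were called in the joint test alone. Of these, MIR210HG and MIR222HG kept that call without each library. MIR133A1HG lost it without siRNA1 replicate 2, MIR155HG without siRNA2 replicate 3, MIR4435-2HG without siRNA1 replicate 2 or 3 or siRNA2 replicate 2, MIR4453HG without NTC replicate 3, siRNA1 replicate 2 or siRNA2 replicate 2 or 3, and MIR663AHG without NTC replicate 1 or 3 or any 1 library labelled siRNA1 (adjusted p 0.053 to 0.244, edgeR).

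Genes around the hosts give the setting. The counts that follow are for replicate 1 against replicates 2 and 3, where 10.4% of all genes tested were lower and 10.9% higher. Of 17 tested noncoding snoRNA hosts outside the symbol rule, 5 were lower in replicate 1 and 0 higher (median -0.16), led by DANCR (-0.84, SE 0.093, adjusted p = 9.43e-07), EPB41L4A-AS1 (-0.34, SE 0.065, adjusted p = 0.000644), LRRC75A-AS1 (-0.24, SE 0.055, adjusted p = 0.00297) and ZFAS1 (-0.27, SE 0.062, adjusted p = 0.00348), all by edgeR. Of 219 protein-coding genes that hold a snoRNA, 33 were lower and 25 higher (median -0.02), among them TRO (-1.08) lower and NLGN4X (4.16, at a mean of 0.465 CPM) and POLA1 (0.37) higher. Of 21 mRNAs of translation factors with a known 5′ pyrimidine start, 5 were lower and 0 higher (median -0.07), including RACK1 (-0.26), EEF1A1 (-0.25), TPT1 (-0.25) and EIF3L (-0.19). Of the 8 core proteins of snoRNPs, which bind the snoRNAs, NOP10 (0.22) and SNU13 (0.16) were higher and none lower. Of 21 decay factors, 3 were higher, among them RNPS1 (0.25) and EIF4A3 (0.17), and 3 lower, among them ETF1 (-0.17) and SMG9 (-0.16). Of 10 tested transcription factors known at host promoters, 2 were higher, E2F1 (0.31) and NFKB1 (0.16), and 3 lower, among them MYC (-0.33) and RUNX1 (-0.17). MYC held 397, 278 and 335 CPM in replicate 1, 494, 465 and 548 CPM in replicate 2 and 411, 289.7 and 353 CPM in replicate 3. The part of MYC and of the decay factors in the host differences was not tested.

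In siRNA1 against NTC, with the replicate number in the model, 5.93% of all genes were lower and 5.48% higher. Beside these shares, 5 of 15 snoRNP assembly factors were lower and none higher, led by SHQ1 (-0.54, SE 0.064, adjusted p = 2.77e-06), RUVBL2 (-0.57, SE 0.076, adjusted p = 1.53e-05), NAF1 (-0.31) and RUVBL1 (-0.24), and of 8 core proteins GAR1 (-0.22) was lower by edgeR. Of 18 proteins that make or use microRNAs, AGO4 (-0.49, SE 0.064, adjusted p = 1.04e-05), TARBP2 (-0.29) and TNRC6A (-0.21) were lower, and AGO4 was called without the replicate number as well (adjusted p = 0.0068, edgeR). Of 689 tested protein-coding genes that hold a microRNA, 49 were higher and 56 lower, among them RXRA (1.47) higher and ARPP21 (-0.88), TLN1 (-0.97) and PITPNM2 (-0.86) lower.

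The small RNAs inside the hosts have rows of their own in the count tables, and these were nearly empty. Of 128 snoRNA genes inside the hosts, 88 had no count in any library and 3 were over 1 CPM: SNORD104 in SNHG25 (4.22 CPM), SNORA73B in SNHG3 (2.03 CPM) and SNORD99 in SNHG12 (1.27 CPM). All 3 lie in introns. SNHG14 alone holds 84 of the 128, most of them in introns, and nearly all of its SNORD115 copies had no count. Other snoRNA genes lie in exon sequence of their host, where a read that fits both genes stands apart as ambiguous. Empty rows there can come from the counting alone. None of the 128 lies inside GAS5 in this annotation. Of 94 microRNA genes, 57 were among the identifiers of the tables, 41 of them with no count and none over 1 CPM. Mature snoRNAs and microRNAs were not measured in these libraries, and the host levels above say nothing of them.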

How the data were processed

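PolyA+ RNA of 9 ALL-SIL libraries was measured, prepared with a kit that keeps no strand per the labels' protocols. The authors deposited counts per gene, with GRCh38 as the build per the submitters' processing notes. The aligner, its settings and the annotation were not stated there. The deposited tables carry 3 count columns, and the column without strand was used, since reads split about evenly between strands (50.2% to 50.6%). Reads that fit more than 1 gene, as where a snoRNA gene overlaps a host's exon, stand apart as ambiguous and entered no host's value. They made up 6.82% to 7.38% of the mapped reads in the tables, those with no gene or several positions included.

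Identifiers were named through GENCODE 29 (57492 of 58096 matched). Host genes were taken by symbol, and both they and the gene lists were chosen with earlier results of these data known. Genes passed edgeR's filterByExpr (minimum count 10), were scaled by TMM and tested by quasi-likelihood with Benjamini-Hochberg adjustment over 18554 genes (edgeR 4.0.16, limma 3.58.1, R 4.3.3), calling adjusted p under 0.05. DESeq2 1.42.0 was an alternative, beside other scalings, filters, limma-voom, summed strand columns and left-out libraries. The procedure was tested on simulated data. Same-numbered libraries deviated together (r 0.383 to 0.623 in 9 pairs, against -0.445 to 0.0693 in 18 others), so values with the replicate number are printed too. Replicates differed by more than counting noise alone. Named genes were every host called, the 8 snoRNA and 6 microRNA hosts with the highest level per length, the extremes in each comparison, up to 4 called members of each list, and TLX1. Hosts named for a role are in addition to these. The result of 1 list of cell markers is not reported here.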

Additional observations from a re-analysis of the deposited data

How the results depend on the processing

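With the replicate block, which adds the replicate number to the model, the host calls were 10 in siRNA1 against NTC, 0 in siRNA2 against NTC, 5 in siRNA1 against siRNA2 and 2 in both siRNAs against NTC, where the groups as they stand gave 0 each. Testing every gene with at least 1 count gave 3, 0, 1 and 2 calls in the same order, and DESeq2 gave 1, 0, 2 and 0. Leaving out 1 library without the block gave 0 to 1 calls in siRNA1 against NTC and 0 in the other 3. Leaving out 1 library with the block, an alternative chosen after seeing the data, gave 2, 3, 4, 5, 6 or 11 calls in siRNA1 against NTC, 0 or 1 in siRNA2 against NTC, 2 to 6 in siRNA1 against siRNA2 and 2, 3 or 5 in both against NTC. The joint test of replicate numbers gave 24 to 30 calls without 1 library, with 17 of the 30 calls kept without each library and 13 lost without at least 1, and 26 to 32 under other scalings, filters, tools and columns. Replicate 1 against the others gave 18 to 21 calls under those settings and 11 to 21 without 1 library. Over all genes, calls in siRNA1 against NTC were 238, with 590 at the looser filter, 556 by DESeq2 and 2117 with the block, in siRNA2 against NTC 0, 15, 4 and 28, in siRNA1 against siRNA2 201, 557, 522 and 1958, and in both against NTC 3, 169, 110 and 728. The hosts tested numbered 64 at the looser filter and 37 with a CPM of at least 1 in 3 libraries, counted after seeing the data. With the longest transcript as gene length, 11 of the 14 top hosts by level were shared. No called host changed direction under these settings, and the cause of the changes was not tested. Hosts under 1 CPM are limited by depth.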
